A study of Homo sapiens with 3 samples.

Results

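The genes described here are 48 genes of the endoplasmic reticulum (ER), out of 43913 genes in the count tables, whose products import, fold, glycosylate and clear secreted and membrane proteins or sense the load of unfolded protein. They were taken by name from a fixed list: 13 chaperones and cofactors, 6 enzymes that form or handle disulphide bonds, 9 translocon genes, 8 genes of the signal peptidase and oligosaccharyltransferase, 10 genes of ER-associated degradation, and 2 stress sensors. All 48 symbols were found in each of the 3 tables. They were not picked by a rule on expression values, but the list was drawn up with earlier results of these data known. Drop-seq, which captures single cells in droplets with barcoded beads and counts each tagged RNA molecule once by a unique molecular identifier (UMI), was applied to MM.1S cells alone, to HS-5 cells alone, and to both lines after 4 h of coculture. MM.1S is a human multiple myeloma line and HS-5 is a human bone marrow stromal line. Both were untreated, and the methods give RPMI as the medium of the myeloma cells and DMEM as that of HS-5. The medium of the sequenced coculture is not given there, so coculture, medium and library cannot be told apart. The 4 h of coculture is the time in the methods, and figure legends of the study give 2 h. The 3 libraries, 1 per condition, answer how these genes differ between a myeloma and a stromal cell and how they stand in each line once the cells share a dish. With 1 library per condition there was no test, and every interval below is a 95% interval of counting error only.

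The ER is the entry compartment of secretion. Nascent chains are targeted to the SEC61 channel, signal peptidase removes their signal sequence, oligosaccharyltransferase adds N-glycans, and chaperones and disulphide isomerases fold them. Chains that fail are drawn back to the cytosol and degraded. When unfolded chains build up, the sensors IRE1 (encoded by ERN1), ATF6 and PERK (encoded by EIF2AK3) switch on the unfolded protein response, which raises chaperones and degradation genes through XBP1, ATF6 and ATF4. Plasma cells, the normal counterpart of myeloma cells, are professional antibody-secreting cells and need XBP1 for that task.

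The tables held 3994 barcodes for MM.1S, 3865 for HS-5 and 3963 for the coculture, with 10433182, 6143448 and 3981392 UMIs. The cells of the coculture library were assigned to a line by 82 genes of MM.1S and 231 genes of HS-5 that were at least 50-fold different between the monocultures, none of them among the 48. This gave 3947 MM.1S cells from the monoculture, 1642 MM.1S cells from the coculture, 3732 HS-5 cells from the monoculture and 2106 HS-5 cells from the coculture, and 108 coculture cells (2.80%) with a mixed signal were left out. Of 12 MM.1S marker genes, 9 were at least 2-fold higher in their own line (with at least 3 UMIs there) in monoculture and 10 in coculture. The plasma cell marker SDC1 was not among them in either (38.1 against 135 CPM and 124 against 126 CPM), and CD79A had 0.0958 CPM in MM.1S monoculture and 0 elsewhere. Of 14 stromal marker genes, 9 and 13 passed the same rule. FN1 passed in neither, at 252 CPM in HS-5 against 810 CPM in MM.1S in monoculture and 280 against 2224 CPM in coculture. In monoculture CAV1 was also the lower in HS-5 (356 against 457 CPM). TIMP1 (435 against 230 CPM), LGALS1 (3109 against 1847 CPM) and S100A6 (3085 against 2926 CPM) were less than 2-fold apart there. Barcodes found in more than 1 library numbered 83, and 2, 8 and 7 of them were among the cells kept of MM.1S, HS-5 and the coculture. The MM.1S cells of the coculture were shallow, with a median of 669 UMIs against 2201 in monoculture (957 against 972 in HS-5). The share of UMIs in ribosomal protein genes was 18.8% in MM.1S monoculture and 12% in MM.1S cells of the coculture. It was 7.54% in HS-5 monoculture and 8.64% in HS-5 cells of the coculture. RNA of the other line outside its cells was estimated at 1.72% of the UMIs in MM.1S cells of the coculture and 0.789% in HS-5 cells.

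Together the 48 genes took 2.27% of all UMIs in MM.1S monoculture and 1.13% in HS-5 monoculture. Their summed level was 22734 counts per 1000000 UMIs (CPM, interval 22643 to 22826) in MM.1S monoculture, 23516 CPM (23256 to 23779) in MM.1S cells of the coculture, 11324 CPM (11240 to 11408) in HS-5 monoculture and 13173 CPM (13030 to 13316) in HS-5 cells of the coculture. The sum was therefore about as high in MM.1S with as without HS-5, at a ratio of 1.03 (1.02 to 1.05), and higher in cocultured than in lone HS-5 cells, at a ratio of 1.16 (1.15 to 1.18). Each UMI stands for 1 RNA molecule caught at its 3′ end, so levels are compared for 1 gene between groups and not between genes.

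**Figure D1:**
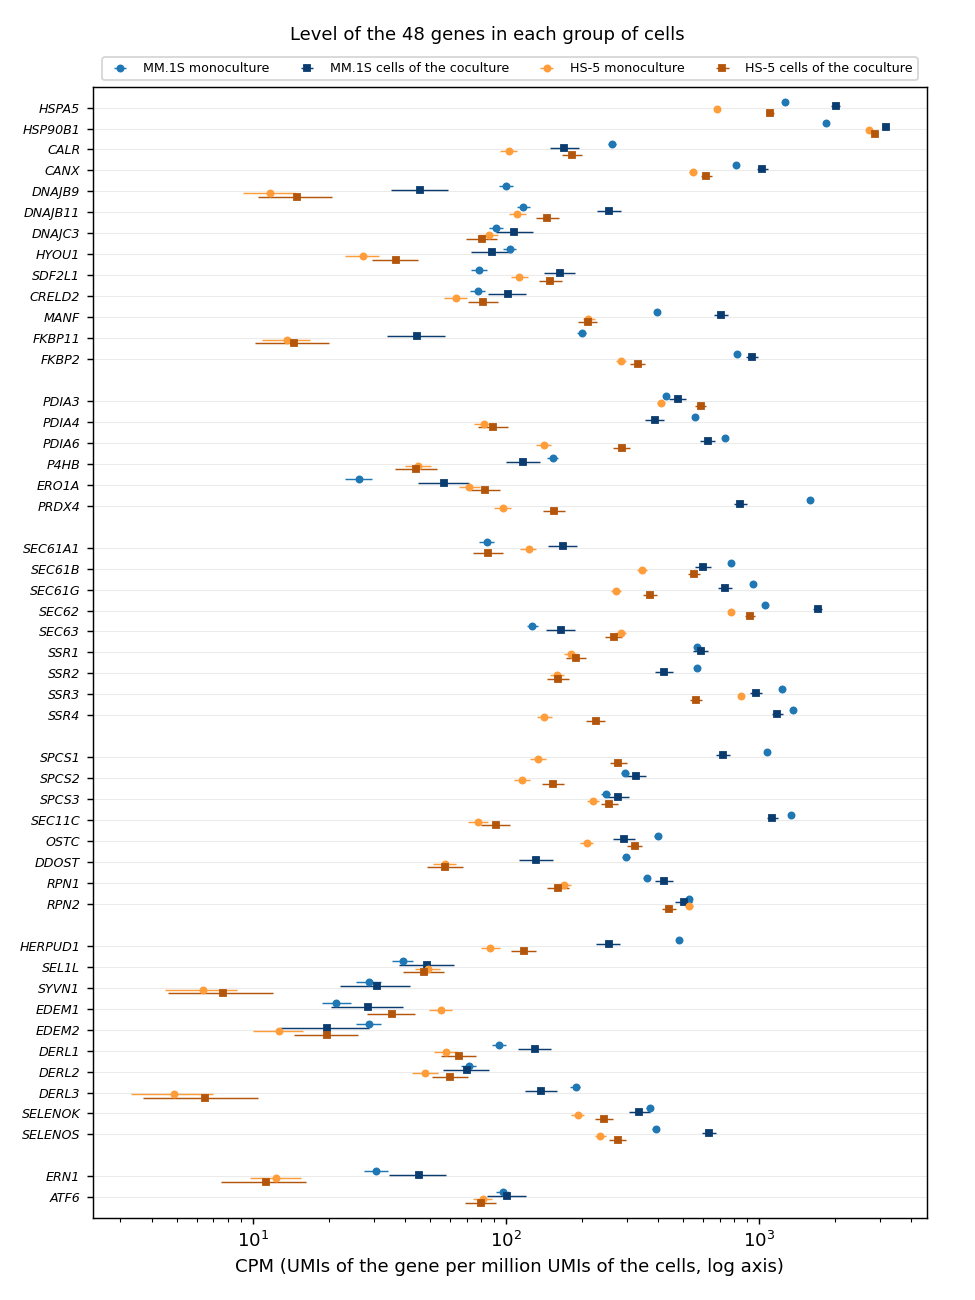
Level of each of the 48 genes (vertical axis, grouped from top to bottom as chaperones and cofactors, disulphide enzymes, translocon, signal peptidase and oligosaccharyltransferase, degradation, sensors) in CPM on a log axis. Points are the 4 groups of cells, 1 library per condition, and bars are 95% Poisson intervals of counting error. The orange HS-5 points lie left of the blue MM.1S points for most genes, with DERL3 the widest apart (4.88 against 189 CPM in the monocultures).

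The promoter of HSPA5 holds an ER stress response element (ERSE), a sequence shared by promoters of the unfolded protein response: the letters CCAAT and CCACG with 9 bases between them, bound in the stressed cell by ATF6 together with NF-Y. HSPA5 encodes BiP, the ER Hsp70 chaperone, and lies on the minus strand at chr9:125234853-125241330 (GRCh38, GENCODE 29). RefSeq promoters of 300 bases (GRCh38.p14, 250 bases before the start site and 50 after) were found for 43 of the 48 genes. That of HSPA5, chr9:125241294-125241593 on the minus strand, is shown whole, with the letters of the element in capitals. The element begins 66 bases before the start site.
HSPA5: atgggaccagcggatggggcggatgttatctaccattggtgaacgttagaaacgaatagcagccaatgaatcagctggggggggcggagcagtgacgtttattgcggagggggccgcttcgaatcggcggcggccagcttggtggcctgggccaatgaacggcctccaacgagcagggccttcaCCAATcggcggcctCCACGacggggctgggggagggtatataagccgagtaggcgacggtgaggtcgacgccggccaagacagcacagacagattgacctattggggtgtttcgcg

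Searched on both strands, the same letters stood in the promoters of 6 of the 43 genes (14.0%), against 25 of 27305 genes with a promoter in the RefSeq table (0.0916%). The other five are shown because they carry the element that groups them with HSPA5, each with 10 bases on either side and read along the strand of the element.
HSP90B1, chr12:103930206-103930244, plus strand: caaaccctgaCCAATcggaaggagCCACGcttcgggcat
HSP90B1, chr12:103930311-103930349, minus strand: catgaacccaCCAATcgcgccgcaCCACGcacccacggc
CALR, chr19:12938374-12938412, minus strand: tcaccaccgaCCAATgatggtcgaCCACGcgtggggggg
CANX, chr5:179698768-179698806, plus strand: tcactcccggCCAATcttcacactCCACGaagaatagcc
CRELD2, chr22:49918544-49918582, minus strand: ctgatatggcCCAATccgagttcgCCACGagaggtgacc
PDIA6, chr2:10812843-10812881, minus strand: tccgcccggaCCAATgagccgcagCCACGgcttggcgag

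A compact form of the element (ERSE-II), ATTGG and CCACG with 1 base between them, stood in the promoters of 3 of the 43 genes (6.98%) and of 19 of the 27305 (0.0696%). It occurred 2 times in HYOU1 and 1 time each in SDF2L1 and HERPUD1, with its letters in capitals below.
HYOU1, chr11:119057264-119057294, plus strand: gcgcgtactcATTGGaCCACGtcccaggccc
HYOU1, chr11:119057370-119057400, plus strand: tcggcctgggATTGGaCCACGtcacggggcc
SDF2L1, chr22:21642104-21642134, minus strand: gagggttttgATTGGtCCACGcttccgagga
HERPUD1, chr16:56932015-56932045, plus strand: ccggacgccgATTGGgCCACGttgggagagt

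The 7 letters TGACGTG, the core bound by XBP1 and also part of other sites of its factor family, stood in 6 of the 43 promoters (14.0%: HYOU1, FKBP11, SEC61A1, SEC62, SSR3 and SSR4) and in 654 of the 27305 (2.40%), and in HYOU1 they overlapped 1 copy of ERSE-II. These matches describe letters in a window and not binding. In HS-5 cells, all 9 genes with ERSE or ERSE-II were higher in the coculture than in monoculture beyond counting error, as were 14 of the 33 genes with a promoter and neither element that passed 10 CPM and 20.1% of all genes compared. The median log2 ratios of these sets were 0.42 and 0.21. In MM.1S cells the 9 genes split, with 5 higher, 3 lower (CALR, PDIA6 and HERPUD1) and HYOU1 within counting error. This compares with 10 higher and 13 lower of the 34 with neither element, and 40.4% higher and 19.2% lower of all genes. These counts were not tested and are no evidence on the element. The HSP90B1 ratio in HS-5, 0.07 on the log2 scale, changed sign with equal weight per cell, with cells thinned to 1000 UMIs and with a length trend removed.

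In MM.1S cells the genes moved apart from each other in coculture, and few by as much as 2-fold. Averaged over both groups of cells, all 48 genes passed the minimum level of 10 CPM. Of these, 3 were at least 2-fold higher in coculture (6.25%, DNAJB11, ERO1A and SDF2L1), where 19.0% of the 7838 genes compared were, and 3 were at least 2-fold lower (6.25%, FKBP11, DDOST and DNAJB9), where 5.81% of all were. Beyond counting error, 18 genes were higher and 18 lower, against 40.4% and 19.2% of all genes. The log2 ratio, with 1 CPM added to both levels, had a median of 0.05 over the 48 genes. The median over all genes was itself shifted to 0.24, so relative to it the 48 genes stood at -0.19. None of the 3 higher genes stayed past 2-fold when the median of all genes was set to 0, or when ribosomal protein and mitochondrial genes were left out of the scaling, and 5 were then 2-fold lower in each case.

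In HS-5 cells the genes were shifted upward by a small amount. Of the 46 genes that passed 10 CPM (SYVN1 and DERL3 did not), 2 were at least 2-fold higher in coculture (4.35%, SPCS1 and PDIA6), against 1.19% of the 8815 genes compared, and 0 were 2-fold lower, against 1.83%. Higher beyond counting error were 25 of the 46, where 20.1% of all genes were, and lower were 4 (SEC61A1, SSR3, RPN2 and EDEM1), where 23.2% of all genes were. The median log2 ratio was 0.22 over the 46 genes and -0.04 over all genes. In both lines 11 of the 48 genes were higher in coculture beyond counting error: HSPA5, HSP90B1, CANX, DNAJB11, SDF2L1, CRELD2, FKBP2, PDIA3, SEC62, SPCS3 and SELENOS. They were 23.9% of the 46 genes that passed in both lines, against 6.11% of the 6757 genes of the tables that did. Another 9 were lower in MM.1S and higher in HS-5 cells (19.6%, against 8.08% of all), SEC61A1 was the reverse (2.17%, against 15.2% of all), and SSR3 was lower in both (2.17%, against 1.86% of all). Both comparisons take their cocultured cells from the same library. Of the 11, FKBP2, PDIA3 and SPCS3 stood below 0 in MM.1S when the median of all genes was set to 0, and PDIA3 and SPCS3 also when ribosomal protein and mitochondrial genes were left out of the scaling. With a length trend removed, CANX (-0.15), PDIA3 (-0.28) and SPCS3 (-0.41) stood below 0 in MM.1S, and HSP90B1 (-0.05) and FKBP2 (-0.15) in HS-5. The ratio followed transcript length in opposite ways in the lines: across the 48 genes in MM.1S and the 46 in HS-5, Spearman's rho between log2 ratio and length was 0.32 and -0.36, and across all genes it was 0.32 and -0.33. The part of length in the results was not tested beyond the adjusted values given beside them.

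**Figure D2:**
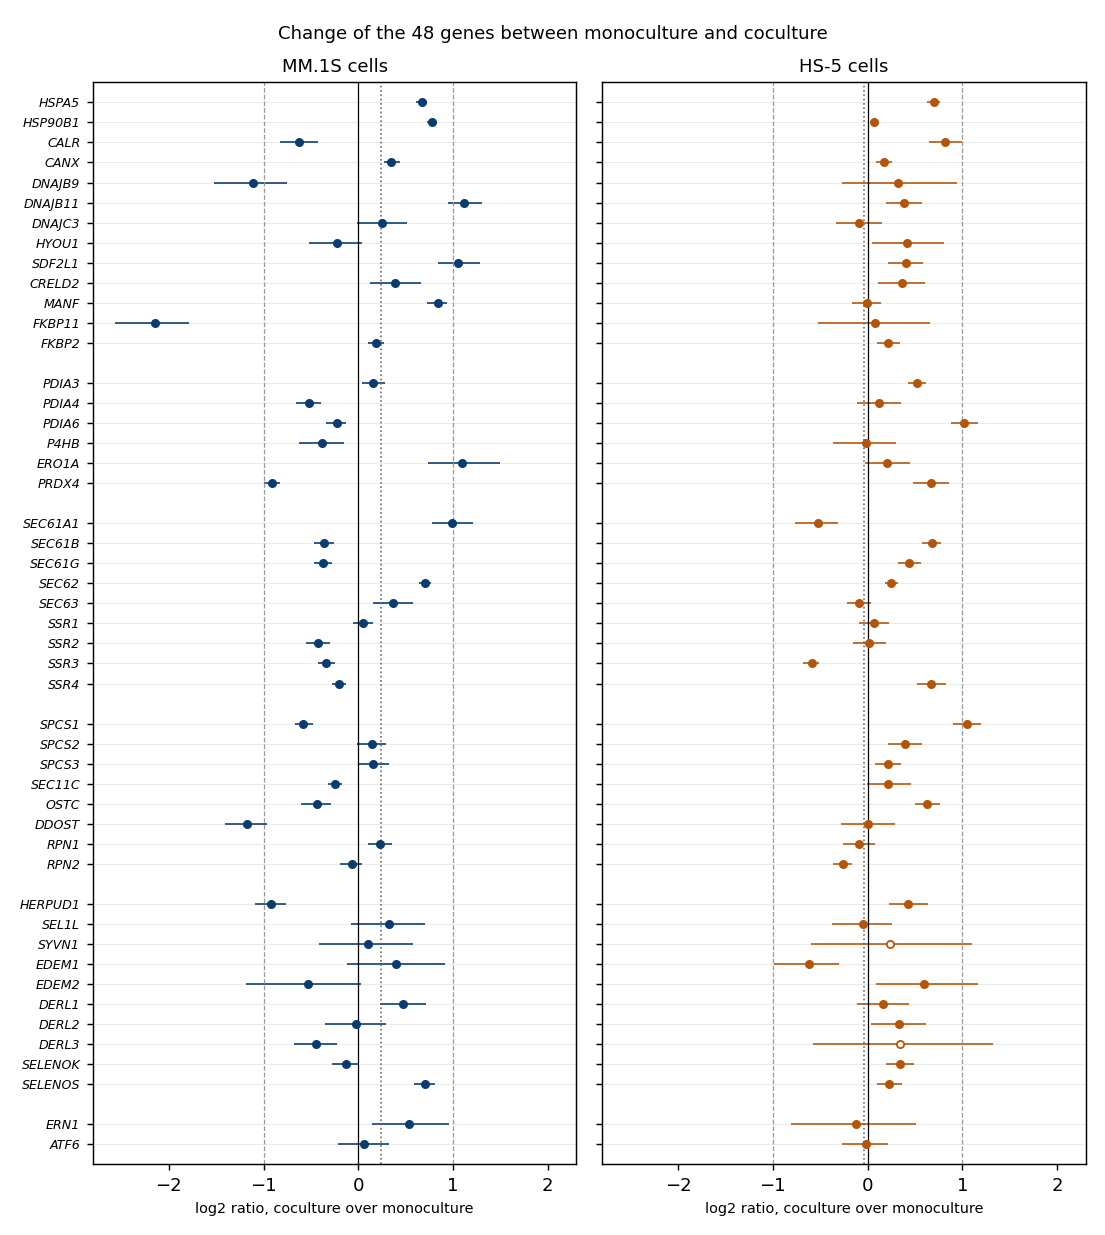
Log2 ratio of coculture over monoculture (horizontal axis) for the 48 genes in MM.1S cells (left) and HS-5 cells (right), in the same order as the levels. Points are ratios of 1 library each, bars are 95% intervals of counting error, open points are genes under 10 CPM, dashed lines mark a 2-fold difference and dotted lines the median of all genes (0.24 and -0.04). The MM.1S points spread to both sides, from -2.14 for FKBP11 to 1.12 for DNAJB11, and the HS-5 points lie mostly right of 0.

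Among chaperones, BiP was higher in coculture in both lines. HSPA5 stood at 1261 CPM (1239 to 1282) in MM.1S monoculture and 2008 CPM (1932 to 2085) in MM.1S cells of the coculture, and at 681 CPM (661 to 702) in HS-5 monoculture and 1108 CPM (1067 to 1150) in HS-5 cells of the coculture. The log2 ratio was 0.67 (0.61 to 0.73) in MM.1S and 0.70 (0.63 to 0.77) in HS-5, or 1.59-fold and 1.63-fold, with no overlap of the intervals in either line. In MM.1S it was 0.15 once the trend with transcript length was removed, and in HS-5 it was 0.87 on that scale.

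HSP90B1, which encodes GRP94, the ER member of the Hsp90 family, stood at 1839 CPM in MM.1S monoculture and 3164 CPM in coculture, and at 2731 and 2876 CPM in HS-5. Its log2 ratio was 0.78 (0.73 to 0.83) in MM.1S and 0.07 (0.03 to 0.11) in HS-5. HS-5 was the higher line in monoculture (0.57) and MM.1S in coculture (-0.14 for HS-5 over MM.1S). Its near-identical pseudogene copies HSP90B2P and HSP90B3P were listed at 9.97 and 2.40 CPM in MM.1S monoculture and at 34.6 and 19.6 CPM in coculture, so part of its molecules may have been counted there.

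DNAJB11 and SDF2L1, partners of BiP that work in one complex, had the highest ratios of the chaperone group in MM.1S. DNAJB11 stood at 117 CPM (111 to 124) and 255 CPM (229 to 284) in MM.1S without and with HS-5, and at 111 and 146 CPM in HS-5, giving log2 ratios of 1.12 (0.95 to 1.30) and 0.39 (0.20 to 0.58). SDF2L1 stood at 78.4 CPM (73.1 to 84.0) and 163 CPM (142 to 187) in MM.1S and at 113 and 150 CPM in HS-5, giving 1.05 (0.84 to 1.28) and 0.41 (0.22 to 0.59). MANF, a secreted partner of BiP, was next in MM.1S, at 395 and 706 CPM (0.84, 0.73 to 0.94), and was level in HS-5, at 212 and 211 CPM (-0.01, -0.16 to 0.14).

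The lowest ratio of all 48 genes in MM.1S also belonged to this group. FKBP11, a peptidyl-prolyl isomerase of secretory cells, stood at 200 CPM (191 to 208) in MM.1S monoculture and 44.4 CPM (33.8 to 57.3) in coculture, a log2 ratio of -2.14 (-2.57 to -1.79), and at 13.7 and 14.5 CPM in HS-5 (0.08, -0.52 to 0.66). DNAJB9, a J-domain cofactor that holds IRE1 in check, stood at 100 CPM (94.3 to 107) and 45.9 CPM (35.1 to 59.0) in MM.1S, or -1.11 (-1.52 to -0.75), and at 11.7 and 14.9 CPM in HS-5. FKBP11 and DNAJB11 each overlap another annotated gene on their own strand that was not in the tables, so shared reads cannot be told apart.

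Calreticulin and calnexin, the lectins that bind nascent glycoproteins, went different ways. CALR stood at 263 CPM (253 to 273) in MM.1S monoculture and 170 CPM (149 to 194) in coculture, and at 103 CPM (94.9 to 111) and 182 CPM (166 to 200) in HS-5, so it was lower in one line (-0.63, -0.83 to -0.43) and the highest chaperone in the other (0.82, 0.65 to 1.0). CANX stood at 808 and 1032 CPM in MM.1S and at 548 and 618 CPM in HS-5, higher in both, although in MM.1S its sign changed with the length trend removed. Of the remaining chaperones, CRELD2 (0.39 and 0.36) and FKBP2 (0.19 and 0.22) were higher in both lines beyond counting error, FKBP2 with the sign changes given above. HYOU1, the exchange factor of BiP, stood at -0.23 (within counting error) in MM.1S and 0.42 (beyond it) in HS-5, and DNAJC3 was within it in both (0.25 and -0.09). Differences between the lines were not tested. Summed over the 13 genes, chaperone levels were 6154 and 8823 CPM in MM.1S, a ratio of 1.43 (1.41 to 1.46), and 4987 and 5852 CPM in HS-5, a ratio of 1.17 (1.15 to 1.20). Most of the step in the MM.1S sum came from HSPA5 and HSP90B1. The median log2 ratio of the 13 genes was 0.35 in MM.1S, against 0.24 over all genes, and 0.32 in HS-5, against -0.04.

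**Figure D3:**
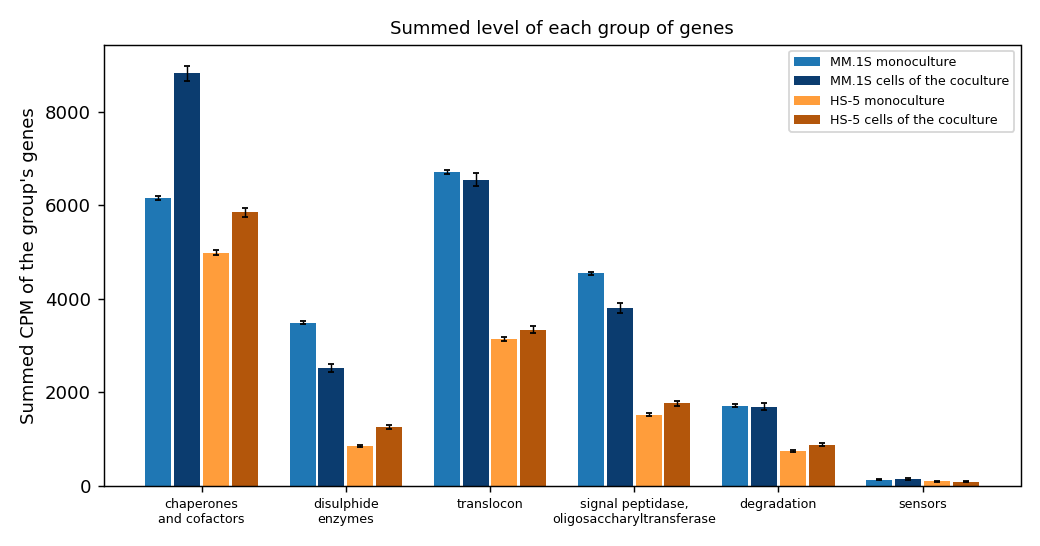
Summed CPM (vertical axis, from 0) of the genes of each functional group in the 4 groups of cells, with 95% Poisson intervals of counting error, 1 library per condition. Chaperones are the group with the largest step in the sum between lone and cocultured MM.1S cells (6154 and 8823 CPM), most of it from HSPA5 and HSP90B1. Disulphide enzymes are lower in cocultured MM.1S (3485 and 2508 CPM, most of the step from PRDX4) and higher in cocultured HS-5 (846 and 1247 CPM, most of it from PDIA6 and PDIA3).

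The summed level of the disulphide enzymes was lower in cocultured MM.1S and higher in cocultured HS-5, with PRDX4 and PDIA6 the genes that had this pattern one by one. Different genes carried the steps: most of that in MM.1S came from PRDX4, and most of that in HS-5 from PDIA6 and PDIA3. The sum was 3485 CPM (3449 to 3521) in MM.1S monoculture and 2508 CPM (2423 to 2594) in coculture, a ratio of 0.720 (0.694 to 0.746), and 846 CPM (824 to 870) and 1247 CPM (1204 to 1292) in HS-5, a ratio of 1.47 (1.41 to 1.54). PRDX4, an ER peroxiredoxin that uses hydrogen peroxide to form disulphides, stood at 1585 CPM (1561 to 1609) and 842 CPM (793 to 893) in MM.1S and at 97.0 CPM (89.4 to 105) and 155 CPM (140 to 171) in HS-5. Its log2 ratio was -0.91 (-1.0 to -0.83) in MM.1S and 0.67 (0.48 to 0.86) in HS-5, and 0.62 in HS-5 after the estimated RNA from MM.1S was subtracted.

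PDIA6, a disulphide isomerase that also dampens IRE1, stood at 735 CPM (719 to 752) and 626 CPM (584 to 670) in MM.1S and at 141 CPM (132 to 151) and 287 CPM (266 to 309) in HS-5. Its log2 ratio in HS-5, 1.02 (0.88 to 1.17), was one of the 2 past 2-fold. That in MM.1S was -0.23 (-0.34 to -0.13) and turned to 0.09 in cells thinned to 1000 UMIs. ERO1A, the oxidase that recharges protein disulphide isomerase, was past 2-fold higher in MM.1S, at 26.3 CPM (23.2 to 29.6) and 57.2 CPM (45.1 to 71.6), a log2 ratio of 1.09 (0.74 to 1.5). In HS-5 it stood at 71.6 and 83.0 CPM (0.21, -0.03 to 0.45). PDIA4 (-0.52) and P4HB (-0.38), both isomerases, were lower in MM.1S and within counting error in HS-5 (0.12 and -0.02), and PDIA3, the isomerase that works with calnexin and calreticulin, stood at 0.16 in MM.1S, a sign that changed under 3 alternatives (the median of all genes set to 0, scaling without ribosomal protein and mitochondrial genes, and length), and at 0.52 in HS-5.

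Translocon genes showed a split within the SEC61 channel itself. SEC61A1, the pore subunit, stood at 84.1 CPM (78.6 to 89.8) and 168 CPM (147 to 191) in MM.1S and at 123 CPM (114 to 132) and 85.0 CPM (73.9 to 97.3) in HS-5, with log2 ratios of 0.99 (0.78 to 1.21) and -0.52 (-0.76 to -0.31). The small subunits went the other way. SEC61B stood at 772 and 601 CPM in MM.1S (-0.36, -0.47 to -0.26) and at 346 and 555 CPM in HS-5 (0.68, 0.58 to 0.78), and SEC61G at 948 and 731 CPM in MM.1S (-0.37, -0.47 to -0.28) and at 273 and 370 CPM in HS-5 (0.44, 0.32 to 0.56). These 3 subunits differ in transcript length (3238 bases for SEC61A1, 566 for SEC61B and 487 for SEC61G), and with the length trend removed SEC61A1 stood at 0.62 and -0.44 and SEC61B at -0.22 and 0.26.

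SEC62, which serves post-translational import and the trimming of the ER after stress, stood at 1051 and 1709 CPM in MM.1S (0.70, 0.64 to 0.77) and at 775 and 921 CPM in HS-5 (0.25, 0.18 to 0.32). SEC63, its J-domain partner, was higher in cocultured MM.1S (127 and 165 CPM, 0.37, and -0.25 with the length trend removed) and within counting error in HS-5 (284 and 267 CPM). Of the 4 subunits of the translocon-associated protein complex, SSR4 was lower in MM.1S (-0.20) and higher in HS-5 (0.67), SSR2 was lower in MM.1S (-0.42), SSR3 was lower in both (-0.34 and -0.59), and SSR1 was within counting error in both (0.05 and 0.07). The group summed to 6712 and 6544 CPM in MM.1S and 3133 and 3340 CPM in HS-5, ratios of 0.975 (0.953 to 0.997) and 1.07 (1.04 to 1.09). None of its 9 genes was past 2-fold in either line, with SEC61A1 just short of it in MM.1S (0.99). Of all genes, 19.0% were 2-fold higher and 5.81% lower in MM.1S, and 1.19% and 1.83% in HS-5.

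In the signal peptidase and oligosaccharyltransferase group, SPCS1, a small subunit of signal peptidase, had the highest ratio of the 48 genes in HS-5. It stood at 134 CPM (125 to 144) in HS-5 monoculture and 278 CPM (258 to 300) in coculture, a log2 ratio of 1.05 (0.90 to 1.20), and at 1074 CPM (1054 to 1094) and 721 CPM (676 to 768) in MM.1S (-0.58, -0.67 to -0.48). After the estimated MM.1S RNA was subtracted it was 1.03 in HS-5, and with the length trend removed 0.88, below 2-fold. SEC11C, a catalytic subunit of the same enzyme, was the gene of the group with the widest gap between the lines, at 1337 and 1127 CPM in MM.1S against 77.8 and 91.1 CPM in HS-5.

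DDOST, a subunit of oligosaccharyltransferase, stood at 299 CPM (288 to 309) and 132 CPM (113 to 153) in MM.1S, a log2 ratio of -1.17 (-1.41 to -0.96), and at 57.3 and 57.6 CPM in HS-5 (0.01, -0.28 to 0.29). Reads that fall in its same-strand neighbour PINK1-AS cannot be told apart by this counting, and that gene was listed at 3.35 and 4.52 CPM in MM.1S. OSTC, a further subunit, was lower in MM.1S (398 and 292 CPM, -0.44) and higher in HS-5 (209 and 323 CPM, 0.63). SPCS2 (0.14 and 0.40), SPCS3 (0.16 and 0.22), RPN1 (0.23 and -0.09) and RPN2 (-0.07 and -0.26) had smaller ratios in MM.1S and HS-5. In MM.1S, SPCS2, SPCS3 and RPN1 stood below 0 with the median of all genes set to 0. The 8 genes summed to 4540 and 3802 CPM in MM.1S, a ratio of 0.838 (0.813 to 0.862), and to 1515 and 1762 CPM in HS-5, a ratio of 1.16 (1.12 to 1.21).

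The degradation genes showed no common direction in MM.1S, where the sum was 1716 and 1693 CPM (ratio 0.987, 0.944 to 1.03), and a higher sum in cocultured HS-5, at 749 and 881 CPM (1.18, 1.12 to 1.24). HERPUD1, which organises the retrotranslocation complex around SYVN1, stood at 483 CPM (470 to 496) and 255 CPM (228 to 283) in MM.1S and at 86.9 CPM (79.7 to 94.6) and 118 CPM (105 to 132) in HS-5, with log2 ratios of -0.92 (-1.09 to -0.76) and 0.43 (0.23 to 0.64). SELENOS, a selenoprotein of the same machinery, was higher in both lines, at 391 and 635 CPM in MM.1S (0.70) and 236 and 277 CPM in HS-5 (0.23). DERL1 was higher in MM.1S (93.9 and 130 CPM, 0.47, 0.23 to 0.71), and EDEM1, which marks misfolded glycoproteins, was lower in HS-5 (55.2 and 35.5 CPM, -0.62, -0.99 to -0.30).

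DERL3, a retrotranslocation factor of secretory tissues, stood at 189 CPM (180 to 197) and 138 CPM (119 to 159) in MM.1S, a log2 ratio of -0.45, and at 4.88 CPM (3.30 to 6.97) and 6.45 CPM (3.68 to 10.5) in HS-5, where few molecules were found. It overlaps SMARCB1 on the other strand (45.2 to 67.7 CPM in the 4 groups), and whether strand was used in the counting is not given in the sources used here. The low genes of the group gave wide intervals: EDEM2 stood at -0.53 (-1.19 to 0.03) in MM.1S and 0.60 (0.09 to 1.17) in HS-5, and SEL1L (0.32 and -0.05) and the ubiquitin ligase gene SYVN1 (0.10 and 0.24) were within counting error in both. DERL2 (-0.02 and 0.33) and SELENOK (-0.13 and 0.34) were higher in HS-5 beyond counting error, but DERL2 changed sign there with the length trend removed.

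Of the 2 sensors, ERN1 stood at 30.7 CPM (27.4 to 34.2) and 45.2 CPM (34.5 to 58.2) in MM.1S, a log2 ratio of 0.54 (0.14 to 0.96), and at 12.4 and 11.3 CPM in HS-5 (-0.12, -0.81 to 0.51). In MM.1S the sign of that ratio was not kept in cells thinned to 1000 UMIs, where few ERN1 molecules remained, or with the length trend removed. ATF6 stood at 97.0 and 101 CPM in MM.1S and at 81.1 and 79.8 CPM in HS-5, within counting error in both. Activity of these sensors lies in their protein and, for IRE1, in splicing of XBP1 RNA, which gene counts do not show.

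Between the lines, the larger part of the 48 genes was higher in the myeloma cells. In monoculture, 24 genes of the 48 were at least 2-fold lower in HS-5 than in MM.1S, against 15.3% of the 8734 genes compared, and 3 were at least 2-fold higher (6.25%, ERO1A, EDEM1 and SEC63), against 38.1%. Lower in HS-5 beyond counting error were 37, where 28.7% of all genes were, and higher were 7, where 59.5% of all were. The median log2 ratio of HS-5 over MM.1S was -1.01 for the 48 genes and 0.56 for all genes. Within the coculture library, where both lines shared the dish, preparation and sequencing, 22 genes were at least 2-fold lower in HS-5 (45.8%, 15.8% of the 8893 genes compared) and 0 were 2-fold higher (26.1% of all). Lower beyond counting error were 35 and higher 3 (28.3% and 39.0% of all), and the median was -0.98 against 0.17 for all genes.

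DERL3 had the lowest ratio of HS-5 over MM.1S both in monoculture, at -5.01 (-5.84 to -4.75), and in coculture, at -4.22 (-5.26 to -3.68). These intervals leave out the 1 CPM added to the ratios and so sit lower than them for such a low gene. SEC11C followed in both, at -4.08 and -3.62. PRDX4 stood at -4.02 in monoculture and -2.44 in coculture, FKBP11 at -3.77 and -1.55, SSR4 at -3.25 and -2.38, SPCS1 at -2.99 and -1.37, DNAJB9 at -2.99 and -1.56, PDIA4 at -2.75 and -2.11, HERPUD1 at -2.46 and -1.11, and PDIA6 at -2.37 and -1.12. For these genes the gap was narrower in coculture. The narrowing is the sum of the changes given above and not a further measurement, since the same cells enter both. By group, the ratio of summed levels in monoculture and coculture was 0.243 and 0.497 for disulphide enzymes, 0.334 and 0.463 for signal peptidase and oligosaccharyltransferase, 0.437 and 0.520 for degradation, 0.467 and 0.510 for the translocon, 0.732 and 0.623 for the sensors, and 0.810 and 0.663 for chaperones.

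Among the genes higher in HS-5 beyond counting error in either setting, ERO1A stood at 1.41 (1.23 to 1.67) in monoculture and 0.53 (0.15 to 0.94) in coculture, SEC63 at 1.15 (1.06 to 1.26) and 0.69 (0.47 to 0.92), and EDEM1 at 1.33 (1.12 to 1.62) and 0.30 (-0.26 to 0.90). In monoculture HSP90B1 (0.57), SDF2L1 (0.52, 0.38 to 0.68) and SEL1L (0.32, 0.11 to 0.55) were higher in HS-5 too, and in coculture PDIA3 (0.30, 0.17 to 0.44), which stood at 0.01 there with the length trend removed. SEC61A1 changed sides, from 0.54 (0.40 to 0.69) to -0.97 (-1.26 to -0.70). CALR went from -1.35 (-1.48 to -1.23) to 0.10 (-0.14 to 0.33), and RPN2 was the same in both lines in monoculture, at 529 CPM each. In monoculture SEC63 stood at -0.10 with the length trend removed. SEC61A1 stood at -0.35 there and at -0.03 with the median of all genes set to 0. With that median set to 0, HSP90B1 stood at 0.01 and SDF2L1 at -0.04 in monoculture. SEL1L fell below 0 there, and also with the length trend removed.

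**Figure D4:**
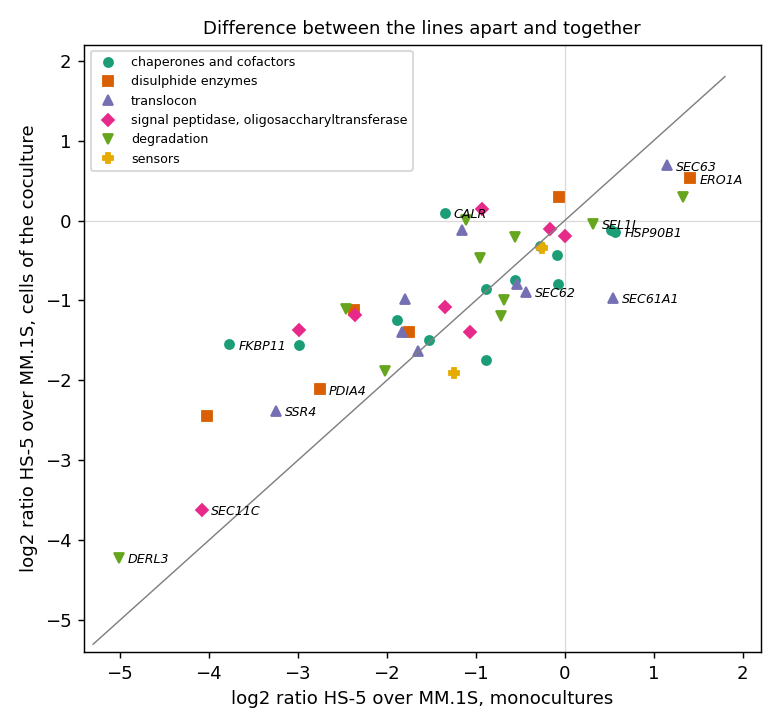
Log2 ratio of HS-5 over MM.1S for each of the 48 genes in the monocultures (horizontal axis) and among the cells of the coculture library (vertical axis), with a symbol for each functional group and the line of equal ratios. Most points lie left of and below 0, DERL3 and SEC11C farthest, and SEC61A1 lies below the line (0.54 and -0.97) and FKBP11 above it (-3.77 and -1.55).

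The other genes of the pathway, 115 genes in the tables on 6 lists, were compared in the same way. In MM.1S, 11 of the 102 that passed 10 CPM were at least 2-fold higher in coculture (10.8%, against 19.0% of all genes) and 5 were 2-fold lower (4.90%, against 5.81%), with a median of 0.11. In HS-5, 1 and 2 of 105 were (0.952% and 1.9%, near the 1.19% and 1.83% of all genes), with a median of 0.04. In HS-5 over MM.1S, 23 of 106 were at least 2-fold higher and 20 at least 2-fold lower in monoculture (38.1% and 15.3% of all genes, median of the list 0.19), and 17 and 21 of 106 in coculture (26.1% and 15.8% of all genes, median of the list 0.12).

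Among stress sensors and transcription factors, ATF4, the factor translated when PERK or a related kinase slows protein synthesis, stood at 88.6 and 371 CPM in MM.1S, a log2 ratio of 2.06 (1.91 to 2.23), and at 237 and 125 CPM in HS-5, a ratio of -0.92 (-1.11 to -0.75). CEBPB stood at 9.58 and 42.9 CPM in MM.1S (2.05, 1.67 to 2.65), and at 224 and 179 CPM in HS-5 (-0.32). NFE2L2, a factor of the oxidative stress response, was past 2-fold higher in MM.1S as well (1.23). Of stress genes downstream of ATF4, DDIT3, which encodes CHOP, stood at 21.1 and 13.6 CPM in MM.1S (-0.60, -1.42 to 0.06), TRIB3 at 22.0 and 24.9 CPM (0.17, -0.40 to 0.70), and PPP1R15A, which encodes the phosphatase subunit GADD34, at 15.0 and 5.27 CPM (-1.36, -2.85 to -0.44). In HS-5, TRIB3 stood at 27.4 and 9.27 CPM (-1.47, -2.26 to -0.93), and DDIT3 at 54.4 and 52.8 CPM (-0.04). MBTPS1 (0.40) and MBTPS2 (0.32), the proteases that release ATF6, had the highest ratios of the list there.

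XBP1, the plasma cell factor, stood at 419 and 264 CPM in MM.1S (-0.66, -0.82 to -0.51) and at 52.4 and 44.7 CPM in HS-5 (-0.22, -0.55 to 0.09), and EIF2AK3 at 10.4 and 15.1 CPM in MM.1S (0.49, -0.24 to 1.22) and 10.3 and 8.06 CPM in HS-5. Of the 16 genes on this list, 13 passed 10 CPM in each line, with 3 past 2-fold higher (23.1%, against 19.0% of all genes) and 1 lower (7.69%, against 5.81%) in MM.1S and 0 and 1 in HS-5 (7.69% lower, against 1.83%).

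On the other lists, signal recognition particle and targeting genes (16 compared in each line) had 0 past 2-fold in both lines. Of all genes, 19.0% were 2-fold higher and 5.81% lower in MM.1S, and only 1.19% and 1.83% in HS-5. The list ran from -0.83 for BTF3 and -0.79 for SRP9 to 0.76 for SRP19 and SRPRB in MM.1S. In HS-5 they ran from -0.63 for SRPRB and -0.33 for SRP68 to 0.51 for SRP14 and 0.45 for SRP9. Of the glycan genes, STT3B (1.47) and MOGS (1.32) were past 2-fold higher and OST4 (-1.68) lower in MM.1S, with DPM3 next lowest (-0.43). In HS-5 the small oligosaccharyltransferase subunit TMEM258 was higher (262 and 676 CPM, 1.37), followed by DPM3 (0.81), with GANAB (-0.78) and MAN1B1 (-0.48) the lowest. OST4 and TMEM258 have short transcripts, of 559 and 1134 bases, against a median of 2356 over the genes compared in MM.1S.

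Among further folding enzymes, PPIB (-1.47) and TXNDC12 (-1.11) were 2-fold lower and DNAJC1 (0.88) and HSPA13 (0.75) the highest in MM.1S. In HS-5 the range ran from FKBP9 (-1.01) and FKBP10 (-0.54) to FKBP7 (0.83) and PPIC (0.66). Among further degradation genes, those past 2-fold higher in MM.1S included the ubiquitin-conjugating enzyme gene UBE2G2 (1.52) and NPLOC4 (1.46) and VCP (1.25), which extract ubiquitinated chains from the ER membrane. RNF5 was past 2-fold lower (-1.44), with ERLEC1 and AUP1 next lowest (both -0.19). In HS-5, 0 of 18 were past 2-fold, where 1.19% of all genes were higher and 1.83% lower. They ran from UBE2J2 (-0.52), HM13 and UBE2G2 (both -0.44) to UFD1 and RNF5 (both 0.41). Among 24 ER to Golgi carriers, SEC16A (1.57) and SEC24A (1.20) were past 2-fold higher in MM.1S, and LMAN2 (-0.57) and TFG (-0.50) the lowest. In HS-5 KDELR3 (0.60) and SAR1B (0.51) stood highest and KDELR1 (-0.33) and COPA (-0.25) lowest.

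Per cell, the same pattern was seen at a fixed depth. In cells with at least 1000 UMIs, each thinned to 1000, the median cell held 22 UMIs of the 48 genes in MM.1S monoculture (3870 cells), 23 in MM.1S cells of the coculture (378), 11 in HS-5 monoculture (1802) and 12 in HS-5 cells of the coculture (1001). The interquartile ranges were 18 to 27, 19 to 27.8, 8 to 14 and 9 to 16 UMIs, so the ranges of the lines did not overlap. Thinned in the same way, HSPA5 was seen in 69.8% of MM.1S cells (68.3 to 71.3) in monoculture and 85.2% (81.2 to 88.6) in coculture, and in 42.7% (40.4 to 45.1) and 55.9% (52.8 to 59.0) of HS-5 cells. Without thinning and over all cells kept, the shares were 89.1% and 71.2% in MM.1S and 43.4% and 53.4% in HS-5, so the order in MM.1S was reversed. The 2 sets of shares differ in depth and in the cells counted. Only 378 of the 1642 MM.1S cells of the coculture were deep enough to be thinned. DERL3, with few molecules in HS-5, was seen in 0.2% of HS-5 cells of the coculture (0.0242 to 0.720) and 12.7% of the MM.1S cells beside them (9.51 to 16.5).

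BiP RNA was spread unevenly over the HS-5 cells of the coculture. The variance of its UMIs over cells, divided by the mean, was 3.59 there, against 1.48 in HS-5 monoculture, 1.11 in MM.1S monoculture and 1.04 in MM.1S cells of the coculture, where a value of 1 is what counting alone gives. The highest cell held 35 HSPA5 UMIs among 1000 in HS-5 cells of the coculture, and 9, 9 and 8 in the other groups. Only 2 of the 1001 HS-5 cells of the coculture held 21 or more. Such cells weigh on the value of 3.59, which was not computed without them. At least 10 were found in 7 of 1001 HS-5 cells of the coculture (0.699%, 0.282 to 1.44) and in 0 of the 1802 HS-5 cells grown alone, where 3 counts would be 0.166% and the exact interval reaches 0.205%. At least 5 were found in 41 of 1001 (4.10%, 2.96 to 5.52) and 17 of 1802 (0.943%, 0.550 to 1.51), and in MM.1S in 18 of 378 cells of the coculture (4.76%, 2.85 to 7.42) and 48 of 3870 in monoculture (1.24%, 0.916 to 1.64). Cells of 1 library are not replicates of a condition, so these shares describe the libraries.

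**Figure D5:**
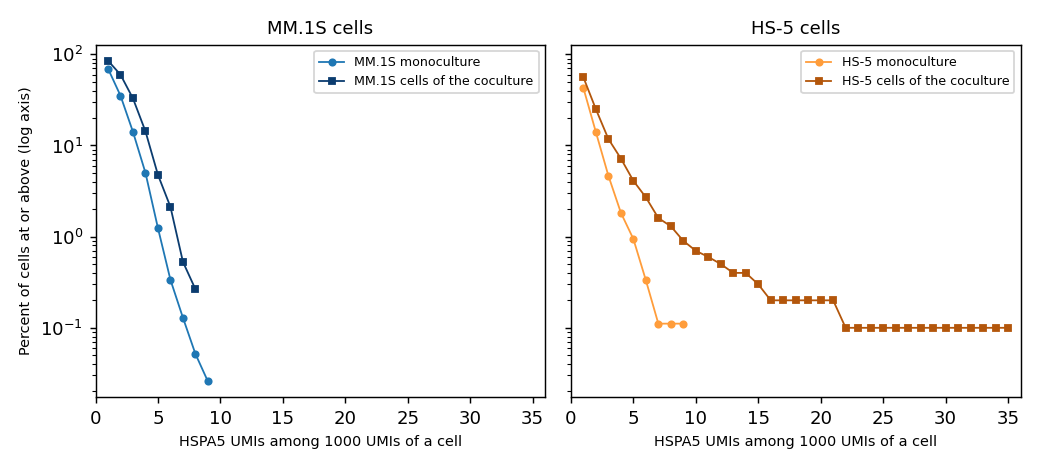
Percent of cells (vertical axis, log scale) with at least the given number of HSPA5 UMIs among 1000 UMIs (horizontal axis), for MM.1S cells (left) and HS-5 cells (right), 1 library per condition. The curve of HS-5 cells of the coculture runs out to 35 UMIs, and those of the other 3 groups end at 8 or 9.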

How the data were processed

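The authors prepared 3 Drop-seq libraries and deposited, for each, a gene by barcode table of UMIs. The deposited values are whole-number counts with no normalization. The submitters' processing notes name Cell Ranger 3.0.2, UMI-tools 1.0.0, STAR 2.5.3a, featureCounts 1.6.4 and SAMtools 1.9 and the build GRCh38, the methods name Seurat, and the annotation is not given in the sources used here. Cell Ranger's role is not stated. No doublet caller was run, and coculture cells of mixed signal were removed.

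Barcodes in which 200 or more genes were detected entered as cells. Coculture cells were assigned by the share of line-specific UMIs (genes of at least 50 CPM and 50-fold apart in the monocultures), with limits of 0.2 and 0.8. UMIs were summed per line and culture and divided by the group total to give CPM (per 1000000 UMIs). Ratios were log2 with 1 CPM added, over genes with a pair mean of at least 10 CPM. A difference of 2-fold, and an exact conditional binomial interval of 95% that excludes 1, were the call rules. The intervals were computed from the counts without the added 1 CPM, so for low genes they are not centred on the printed ratio. Levels have exact Poisson and shares exact Clopper-Pearson intervals. No test was possible with 1 library per condition. Transcript lengths and coordinates come from GENCODE 29 (GRCh38), whose symbols matched 97.3% of the genes, and promoters from RefSeq (GRCh38.p14). For free RNA, the line-specific UMIs of MM.1S found in HS-5 cells, and the reverse, gave the estimate. Scripts ran in Python 3.11.15 with numpy 2.4.6, scipy 1.17.1, pandas 2.3.3 and matplotlib 3.10.9, and were tested on simulated data.

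The members, their groups, the pathway lists (116 genes, 115 in the tables) and the markers were chosen with earlier results of these data known. All 48 members could be named, with full values for HSPA5 and, per group and comparison, for the 3 highest and 3 lowest. From every other list and comparison the rule took the 2 extremes at either end (genes of 10 CPM or more), and XBP1, ATF4, DDIT3 and EIF2AK3 in every case. For HS-5 over MM.1S these lists are given by counts only. Genes past 2-fold outside the rule were added after their values were seen. A gene of these lists that the rule names is not reported here. Alternatives in cells kept, line limits, scaling, weighting, depth, free RNA, length, pseudocount and minimum level were tried. Leaving out barcodes shared between libraries was added after seeing the data.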

Additional observations from a re-analysis of the deposited data

Results flagged for a closer look

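With 1 library per condition no difference between the lines was tested. The values here are listed because the ratio of coculture over monoculture lay on opposite sides of 0 in MM.1S and HS-5 cells, beyond counting error in both. Such opposite signs were also common over all genes. Lower in MM.1S and higher in HS-5 were 8.08% of 6757 genes, against 19.6% of the 46 genes described here that passed in both lines. The reverse held for 15.2% of all and 2.17% of the 46. The share of all genes also at least 2-fold apart was not counted. Each value below is the log2 ratio of HS-5 minus that of MM.1S. Summed over groups, the difference was 1.03 for the disulphide enzymes (0.56 and -0.47), 0.47 for signal peptidase and oligosaccharyltransferase (0.22 and -0.26) and 0.13 for the translocon (0.09 and -0.04). For single genes at least 2-fold apart it was 1.62 for SPCS1, 1.58 for PRDX4, 1.45 for CALR, 1.35 for HERPUD1, 1.25 for PDIA6, 1.07 for OSTC and 1.04 for SEC61B, with HS-5 the higher, and -1.51 for SEC61A1, with MM.1S the higher.

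Transcript length moved with these ratios in both lines, with rho of 0.32 in MM.1S and -0.33 in HS-5 across all genes, and the share of ribosomal protein UMIs differed between the MM.1S groups (18.8% and 12%). The part of either in these differences was not tested beyond the adjusted values: with the length trend removed, the HS-5 and MM.1S ratios were 0.50 and -0.75 for PRDX4, 0.82 and -0.71 for CALR, 0.88 and -0.45 for SPCS1, 0.43 and -1.05 for HERPUD1, 1.10 and -0.51 for PDIA6, 0.41 and -0.25 for OSTC, 0.26 and -0.22 for SEC61B and -0.44 and 0.62 for SEC61A1. All 8 kept their signs there, and PDIA6 in MM.1S did not in cells thinned to 1000 UMIs (0.09).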

How the results depend on the processing

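No paired analysis was possible because each condition had 1 library and the result comes from no test. In MM.1S, the count of 3 genes 2-fold higher was 0 with the median of all genes set to 0, 0 when scaled without ribosomal protein and mitochondrial genes and 1 with the length trend removed. The 3 lower were 5 with the median set to 0, 5 with that scaling and 5 in cells thinned to 1000 UMIs. In HS-5, the 2 higher were 1 with at least 500 genes per cell, 6 with equal weight per cell, 1 with the length trend removed and 1 with a pseudocount of 5. HS-5 over MM.1S, the 3 higher in monoculture were 0 with the median set to 0, 0 with the length trend removed and 1 at a mean of at least 50 CPM, the 0 higher in coculture were 1 in thinned cells, and SEC63 reversed to -0.10 in monoculture with the length trend removed. The 24 and 22 genes lower in HS-5 ranged from 21 to 34 and from 18 to 27.

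For the other pathway genes in MM.1S, the 11 higher were 6 with the length trend removed and 6 at 50 CPM, and the 5 lower were 8 with the median set to 0, 3 at 50 CPM and 8 with no minimum level. In HS-5, the 1 higher was 4 with equal weight per cell and 4 in thinned cells, and the 2 lower were 0 at 50 CPM, 4 with no minimum and 1 under 8 alternatives (at least 500 genes, under 10% mitochondrial UMIs, line limits of 0.1 and 0.9, line genes 20-fold, the median set to 0, equal weight, length trend removed, pseudocount 5). Between monocultures, the 23 higher were 15 at 50 CPM and the 20 lower were 32 with the median set to 0, 34 with the length trend removed and 13 at 50 CPM. In coculture, the 17 higher were 10 at 50 CPM. Where these counts moved, the cause was not tested. A minimum of 50 CPM, or none, also changed the number of genes compared.

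The medians of the 48 genes ranged from -0.22 to 0.06 in MM.1S, 0.16 to 0.28 in HS-5, -1.57 to -0.93 between monocultures and -1.15 to -0.88 in coculture. With the length trend removed, 12 of the 48 genes changed sign in MM.1S and 11 of 46 in HS-5. Leaving out barcodes found in more than 1 library, chosen after seeing the data, moved no gene by more than 0.02. At this depth 3 UMIs come to 2.26 CPM in MM.1S cells of the coculture, so ratios of SYVN1, EDEM2 or ERN1 could not be resolved there below the widths given.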

Other observations

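HS-5 cells with much BiP RNA were set beside the rest. The 41 cells of the coculture with at least 5 HSPA5 UMIs among 1000 (63456 UMIs in all, a median of 1450 per cell) were compared with the 960 others (median 1530). The cells were picked after their values were seen, on HSPA5 itself, so this is a description with no test. Of the 45 other genes of the 48 with at least 10 CPM in these cells, 35 (77.8%) had a higher level in the 41 cells, against 46.1% of 8725 genes in all. The Poisson interval lay above that of the remaining cells for 9 of the 45 (1.39% of all genes) and below it for 0 (0.756% of all). The 9 were HSP90B1, DNAJB11, HYOU1, SDF2L1, MANF, PDIA3, SEC62, OSTC and HERPUD1. These intervals pool the UMIs of the cells and leave out the spread between cells. HYOU1 stood at 205 CPM (109 to 350, from 13 UMIs) against 33.4 CPM (25.3 to 43.3), HERPUD1 at 362 CPM (230 to 544) against 111 CPM (95.6 to 128), and SDF2L1 at 457 CPM (306 to 656) against 146 CPM (128 to 165). Outside the 48, DDIT3 stood at 173 CPM (86.5 to 310) against 43.4 CPM (34.1 to 54.5) and XBP1 at 142 CPM (64.9 to 269) against 38.1 CPM (29.4 to 48.6). ATF4 stood at 236 CPM (132 to 390) against 114 CPM (98.3 to 131). The intervals of the other genes on the list of stress sensors and transcription factors overlapped, with TRIB3 at 0 against 8.21 CPM and CEBPB at 173 against 183 CPM.

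The 17 such cells of the HS-5 monoculture, beside 1785 others, had 34 of 45 genes higher (75.6%, against 45.3% of 8775 genes), 13 with the interval above (28.9%, against 2.22%) and 0 below (0.889% of all). HSP90B1, DNAJB11, SDF2L1, MANF, PDIA3, SEC62 and HERPUD1 were among them as well. HYOU1 was not, at 39.1 CPM (4.73 to 141) against 27.1 CPM (22.6 to 32.1). ATF3, a stress factor outside the 48, stood at 156 CPM (67.4 to 308) against 15.3 CPM (12 to 19.3). In the coculture ATF3 stood at 31.5 CPM (3.82 to 114) against 14.7 CPM (9.48 to 21.6). In the monoculture DDIT3 stood at 195 CPM (93.6 to 359) against 58.3 CPM (51.7 to 65.6), and XBP1 was level, at 58.6 CPM (12.1 to 171) against 54.3 CPM (47.9 to 61.4). ATF4 stood at 547 CPM (363 to 790) against 233 CPM (219 to 247) there. Apart from ATF3, DDIT3 and ATF4, the intervals of the stress list overlapped in the monoculture.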
